A study of Homo sapiens with 15 samples.

Results

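Dense FOXA1 peak clusters are stretches of the genome where several FOXA1 peaks lie close together. They were taken from the FOXA1 peak list of parental 22Rv1 cells given DMSO, the solvent control. Peaks on the same chromosome were chained when the gap from one peak's end to the next peak's start was 12.5 kb or less, and autosomal chains of 4 or more peaks were kept. This gave 302 chains, which held 1383 of the 29506 autosomal DMSO peaks (4.69%) and of 30557 DMSO peaks in all. Another 9068 autosomal peaks (30.7%) were in chains of 2 or 3, and 19055 (64.6%) had no neighbour within the gap; the last are called unchained. Only these 302 chains are meant by chains below, unless a size is given, and their peaks are called chained peaks.

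FOXA1 is a forkhead transcription factor and a pioneer factor: it can bind its sites in closed chromatin and open them for other factors, in prostate cells for the androgen receptor among them. Peaks of a factor that fall near each other are commonly stitched across gaps of this length when enhancer clusters are defined. Enhancer marks such as acetylated histone H3 were not analysed here, so the chains are clusters of FOXA1 peaks and nothing more.

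The study measured FOXA1 location by chromatin immunoprecipitation and sequencing (ChIP-seq) in 22Rv1, an established human prostate carcinoma line, with 12 FOXA1 libraries and 3 input libraries. Parental cells received DMSO (0.1%), the stereoprobe WX-02-23 or WX-02-43 (each 20 µM), or PladB (pladienolide B, a splicing inhibitor) for 3 h, or received small interfering RNA, either siFOXA1, which targets FOXA1 transcripts, or siControl. For PladB in parental cells the sample's own label gives 100 nM and the treatment protocol 10 nM. Engineered 22Rv1 cells stably expressed the Y36C form of PHF5A, a splicing factor subunit, in all 6 of their groups, and carried doxycycline-inducible FOXA1 that was wild type (WT) in the first line and had the C258A change in the second. Each line gave 3 libraries: uninduced cells (no doxycycline) given DMSO, and cells induced by doxycycline and given either DMSO or WX-02-23 (20 µM, 3 h). The antibody was against FOXA1 and the labels name no tag, so FOXA1 of the host cells and induced FOXA1 cannot be told apart.

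Each group had 1 library. No difference between groups therefore has a replicate check, no test was run and p-values are left out. Read depth is unknown. The siFOXA1 list is the shortest and the siControl list, with 34119 peaks, the longest. List length bears on how many DMSO peaks a list can call, but the share called did not follow length alone. With WX-02-23 in parental cells (17217 peaks) 47.2% of all autosomal DMSO peaks were called, and in induced WT cells given DMSO (31735 peaks) 37.0%. A DMSO peak counts as called in another list when it overlaps a peak of that list by at least 1 bp. Intervals are 95% binomial intervals of counting error alone; they treat peaks as independent, which peaks of the same chain are not. The score is the value the authors deposited with each peak; its definition is not given in the sources used here, and it is used within a list, to rank and bin peaks and to sum them over a chain. Scores of different lists are given as deposited, and no change is read from them. Positions are of hg19, counted from 1. No annotation of that build was used here, so no genes or sequences are given for the chains.

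Most chains were short. Of the 302 chains, 207 had 4 peaks, 58 had 5, 18 had 6, 8 had 7 and 8 had 8, and single chains had 10, 12 and 15; 265 (87.7%) thus had 4 or 5 peaks and 37 had 6 or more. Below the limit of 4 lay 798 chains of 3 peaks. The median span was 18700 bp, with a range from 5208 to 52433 bp, and the chains together spanned 6.13 Mb. Peaks covered a median of 20.0% of a chain's span. At the 12.5 kb limit, the widest gap inside a chain was 12495 bp and the narrowest gap that broke a chain was 12502 bp. Most gaps inside chains were far below that limit: the 1081 gaps had a median of 3540 bp and quartiles of 1313 and 7299 bp, and the median gap between all autosomal neighbours was 50214.5 bp. In chains of 3 the median span was 12001.5 bp and the median of the strongest score 615, beside 16554 bp and 746 in chains of exactly 4.

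**Figure D1:**
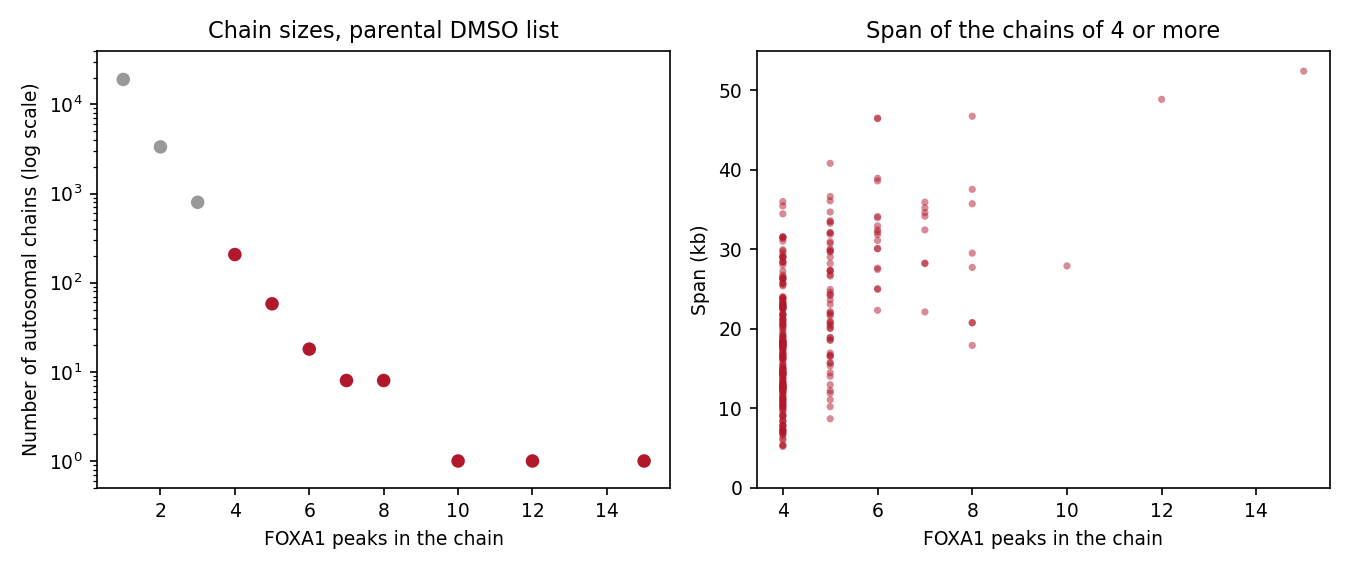
Left, number of autosomal chains (log scale) against the number of FOXA1 peaks per chain in the parental DMSO list; red points are the sizes kept. Right, span in kb of each of the 302 chains kept against its number of peaks. The count drops from 207 chains of 4 peaks to single chains of 10, 12 and 15, and the widest span is 52433 bp.

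Chained peaks had a median DMSO score of 248, against 227 for unchained peaks, and a median width of 761 bp against 671 bp. These values come from the list that defined the chains and are given as a description only. Within a chain the scores were uneven. The strongest peak of a chain had a median score of 825 and held a median of 47.3% of the summed score. It was at an end of the chain in 136 of 302 chains (45.0%), beside the 43.7% of chained peaks that are end peaks. A typical chain thus held a strong peak and several weaker ones, and the strong peak lay at an end about as often as end positions are frequent. The largest of several uneven scores can hold much of their sum in any group of peaks. Groups of unchained peaks were not compared, so whether this unevenness is particular to chains was not tested.

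Chains were found on every autosome, and their share of a chromosome's peaks differed. Chromosome 1 had 38 chains, which held 6.67% of its DMSO peaks (Wilson interval 5.83 to 7.62), followed by chromosome 12 with 26 chains and 6.36%, and chromosome 5 with 28 chains and 6.25%. The lowest shares were 1.42% on chromosome 21, which had 1 chain, and 2.25% on chromosome 14, which had 5. On chromosome 1, the stretch from 143727740 to 149995018 held 10 chains with 63 peaks, among them the chain of 10 peaks and 3 of the 8 chains of 8.

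In the parental lists without a stereoprobe or siFOXA1, most chained peaks were called again. Of the 1383 chained peaks, 1225 (88.6%) were called with siControl, where 88.1% of all autosomal DMSO peaks were called, and 1230 (88.9%) with PladB, where 88.3% of all were. To compare chained with unchained peaks, the unchained share was weighted to the chained peaks' distribution over 10 bins of DMSO score. The matched unchained shares were 89.0% with siControl and 89.1% with PladB. The differences, chained minus matched unchained, were -0.38 percentage points (-1.89 to 1.13) and -0.20 points (-1.66 to 1.25). Every peak of the chain was called in 186 of 302 chains with siControl and in 183 with PladB; no peak was called in 1 chain and in 0. Where both peaks had to overlap by 50% of their length, the differences were -5.69 points (-7.54 to -3.85) and -7.11 points (-9.01 to -5.21).

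With the stereoprobes most chains had some of their peaks called and few had all or none. With WX-02-23, 710 chained peaks (51.3%) were called, beside 47.2% of all autosomal DMSO peaks and 49.4% of matched unchained peaks, a difference of 1.96 points (-0.20 to 4.12). With WX-02-43, 834 (60.3%) were called, beside 55.4% of all and 57.8% of matched unchained peaks, a difference of 2.45 points (0.54 to 4.37). At the level of whole chains, WX-02-23 left all peaks called in 16 chains, some in 267 and none in 19. WX-02-43 left all in 40, some in 249 and none in 13. How many chains of each kind the share of peaks called would give by itself was not computed. The list with WX-02-23 has 17217 peaks and that with WX-02-43 18228, each far fewer than the DMSO list. At the reciprocal overlap of 50% the differences were -0.53 points (-2.85 to 1.78) and 0.054 points (-2.02 to 2.12).

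Which peak of a chain was called followed its DMSO score. With WX-02-23 the strongest peak of the chain was called in 262 of 302 chains (86.8%, 82.5 to 90.1) and the weakest in 56 (18.5%, 14.6 to 23.3). With WX-02-43 the figures were 277 (91.7%) and 78 (25.8%), and with siControl 297 (98.3%) and 211 (69.9%). In 212 chains WX-02-23 left the strongest peak and at least 1 other, in 50 the strongest alone, and in 21 another peak but not the strongest. End peaks and inner peaks differed less: 49.3% (45.4 to 53.3) of end peaks and 52.9% (49.4 to 56.4) of inner peaks were called with WX-02-23, and these intervals overlap. Scores at ends and inside were also close, with medians of 240 and 253.

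**Figure D2:**
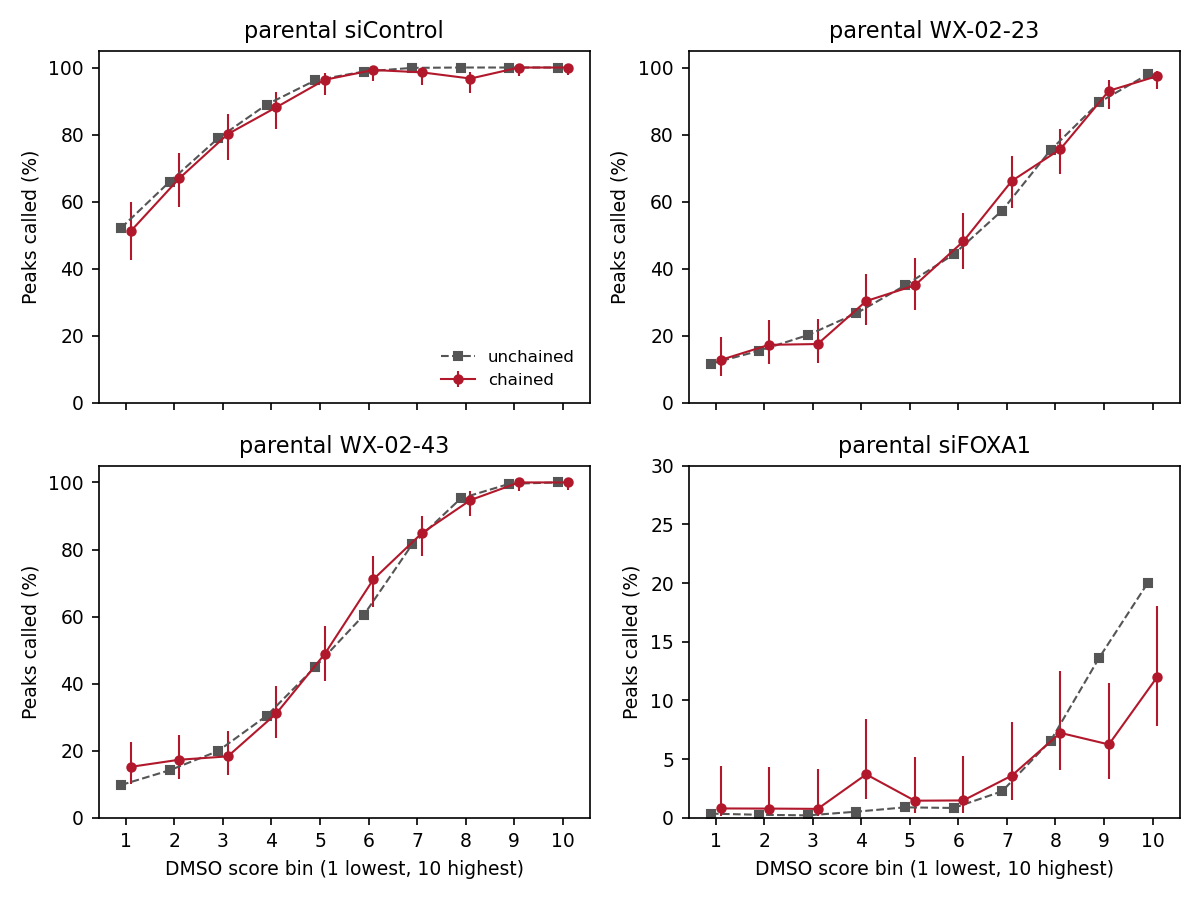
Percent of DMSO peaks called in 4 parental lists against DMSO score bin, for chained (red circles, 95% Wilson bars) and unchained peaks (grey squares); the siFOXA1 axis ends at 30%. Chained and unchained peaks lie close together in most bins of the first 3 lists. Wider gaps are in bin 7 of WX-02-23 (66.2% against 57.3%) and bin 6 of WX-02-43 (71.1% against 60.4%). In the highest bin of siFOXA1 the chained share is 12% and the unchained share 20.0%.

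The same held bin by bin. In the lowest score bin (90.04 to 104.38), 12.8% of 125 chained and 11.7% of unchained peaks were called with WX-02-23; in the highest (985.94 to 3228.29), 97.5% of 158 chained and 97.9% of unchained peaks were. The widest gap between the sets for WX-02-23 was in bin 7, at 66.2% (58.0 to 73.5) against 57.3%. With WX-02-43 it was in bin 6, at 71.1% (63.0 to 78.1) against 60.4%.

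Chains of 6 or more peaks held a higher share of their peaks with WX-02-23 than shorter chains did, and part of that came with 5 chains of the chromosome 1 stretch. In chains of 4 or 5 peaks, 48.7% (45.7 to 51.6) of 1118 peaks were called with WX-02-23; for WX-02-43 the share was 58.4% (55.5 to 61.3). In chains of 6 or more, leaving out the pair of chromosome 19 chains described below, 58.4% (52.1 to 64.5) of 238 peaks were called with WX-02-23, and 64.7% (58.4 to 70.5) after WX-02-43. Set against matched unchained peaks, these longer chains were 8.50 points higher with WX-02-23 (3.83 to 13.2) and 6.20 points higher with WX-02-43 (2.16 to 10.2). With siControl and PladB their differences were -0.68 and -0.43 points, with intervals that span 0, as those of the 6 engineered lists did. The 238 peaks come from the 37 chains of 6 or more less 2, so far fewer than 238 independent units stand behind these values. The 5 of these chains in the chromosome 1 stretch named above hold 41 peaks, of which 34 were called with WX-02-23 and 36 with WX-02-43. Without them, a setting added after the data were seen, 53.3% (46.3 to 60.1) of 197 peaks were called with WX-02-23 and 59.9% (52.9 to 66.5) were after WX-02-43, and these intervals overlap those of chains of 4 or 5. The differences from matched unchained peaks were then 6.16 points (0.91 to 11.4) and 4.63 points (-0.02 to 9.28). For WX-02-43 the shares of longer and shorter chains have overlapping intervals with the stretch included as well.

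The stereoprobes were given at the same dose and time. Their counts of chained peaks were further apart in the lists as deposited than in lists cut to equal length, and the cause was not tested. As deposited, 604 chained peaks (43.7%) were called with both, 106 (7.66%) with WX-02-23 alone, 230 (16.6%) with WX-02-43 alone and 443 (32.0%) with neither. Of unchained peaks, unmatched, 38.8% were called with both, 8.22% with WX-02-23 alone, 16.5% with WX-02-43 alone and 36.5% with neither. Against matched unchained peaks the share called with WX-02-23 alone differed by -0.23 points (-1.65 to 1.19) and that with WX-02-43 alone by 0.26 points (-1.71 to 2.23). When each list was reduced to its highest-scoring peaks at equal length, that of the uninduced WT list, the counts were 324, 113, 127 and 819. At that length 31.6% of chained peaks were called with WX-02-23 and 32.6% with WX-02-43, beside 26.4% and 27.5% of unchained peaks, unmatched. With both, 23.4% of chained and 19.7% of unchained peaks were called. Against matched unchained peaks the differences were 2.87 points (0.92 to 4.81) with WX-02-23 and 2.36 points (0.77 to 3.95) with WX-02-43. Lists without a stereoprobe also gave differences above 0 at that length. They were 1.88 points (0.37 to 3.39) with siControl and 2.84 points (1.30 to 4.38) with PladB. The share called with WX-02-23 alone was 8.17% of chained and 6.70% of matched unchained peaks, a difference of 1.47 points (0.04 to 2.90); for WX-02-43 alone it was 9.18% and 8.22%, a difference of 0.96 points (-0.52 to 2.44). With 1 library per compound, the difference between the compounds has no error of its own beyond counting.

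With siFOXA1, 56 chained peaks (4.05%) were called, beside 3.71% of all autosomal DMSO peaks and 4.95% of matched unchained peaks; the difference was -0.90 points (-1.97 to 0.16). Of these 56 peaks, 20 lay in the 2 chains on chromosome 19. Without those chains, 2.65% of 1356 chained peaks were called and the difference was -2.30 points (-3.18 to -1.41). The sets differed most at the strong peaks: 19 of 158 chained peaks of the highest score bin were called (12%, 7.84 to 18.0), against 20.0% of unchained peaks, and 6.25% against 13.6% in the bin below. Chained peaks are wider than unchained ones of the same score, and where peaks were matched on score and width together, with the chromosome 19 chains included, the difference was 0.53 points (-0.48 to 1.55). A low share was not particular to chains of 4 or more. Of peaks in chains of 2 or 3, 2.11% were called, beside 4.45% of unchained peaks, neither matched on score. Whole chains were seldom called: siFOXA1 left all peaks in 1 chain, some in 29 and none in 272. In 6 chains, 2 or more peaks were called.

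The 6 engineered lists called from 18.9% to 40.9% of the chained peaks. Uninduced WT cells had 382 chained peaks called (27.6%, beside 26.7% of all autosomal DMSO peaks), induced WT cells 565 after DMSO (40.9%, beside 37.0%) and 437 after WX-02-23 (31.6%, beside 29.1%). Uninduced C258A cells had 554 (40.1%, beside 38.3%), and induced C258A cells 262 after DMSO (18.9%, beside 17.6%) and 401 after WX-02-23 (29.0%, beside 26.0%). Between DMSO and WX-02-23 in induced cells, the share of chained peaks called was thus lower after WX-02-23 in the WT line and higher in the C258A line. List lengths moved the same way, from 31735 to 25849 peaks in the WT line and from 13299 to 20609 in the C258A line. At equal length the shares after DMSO and WX-02-23 were 16.6% and 15.9% in the WT line and 13.2% and 14.8% in the C258A line.

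Against matched unchained peaks, the chained share was 3.48 points higher (1.18 to 5.78) in induced WT cells given DMSO and 2.54 points higher (0.48 to 4.60) in induced C258A cells given WX-02-23. It was 2.13 points higher (-0.07 to 4.33) in induced WT cells given WX-02-23 and 0.65 points higher (-1.15 to 2.46) in induced C258A cells given DMSO. In uninduced cells the differences were -0.75 points in WT and -0.15 points in C258A cells, with intervals that span 0. Peaks in chains of 2 or 3, unmatched, were called at 39.2% in induced WT cells given DMSO, beside 35.7% of unchained peaks. In all, 3 of the 11 lists gave intervals that leave out 0, the largest difference being 3.48 points. Without the chromosome 19 pair 4 lists did: siFOXA1 as above, induced WT cells given DMSO at 4.35 points (2.04 to 6.66) or WX-02-23 at 2.78 (0.55 to 5.00), and induced C258A cells given WX-02-23 at 3.13 (1.04 to 5.21). WX-02-43 was then at 1.92 points (-0.0025 to 3.85). With 20 score bins 2 lists did, and induced C258A cells given WX-02-23 were at 1.99 points (-0.05 to 4.04). Matching on width as well as score left 1 such list, WX-02-43 (2.88 points, 0.94 to 4.82), and took induced WT cells given DMSO to 1.87 points (-0.46 to 4.20). With the other lists reduced to equal length as above, siFOXA1 excepted, 7 of 10 lists gave intervals above 0, with differences from 1.80 to 3.30 points. As an average over score bins, with all chains included, chained shares were thus within 3.48 points of matched unchained shares. This holds at 1 bp of overlap in the lists as deposited. Single bins differed by more. In the highest bin the chained share was higher in every engineered list, as in induced WT cells given DMSO (94.3% against 80%) and uninduced WT cells (95.6% against 85%). Lower bins of these lists went either way. In uninduced WT cells the chained share was lower in bins 1 to 6, as in bin 6 (12.6% against 18.1%).

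**Figure D3:**
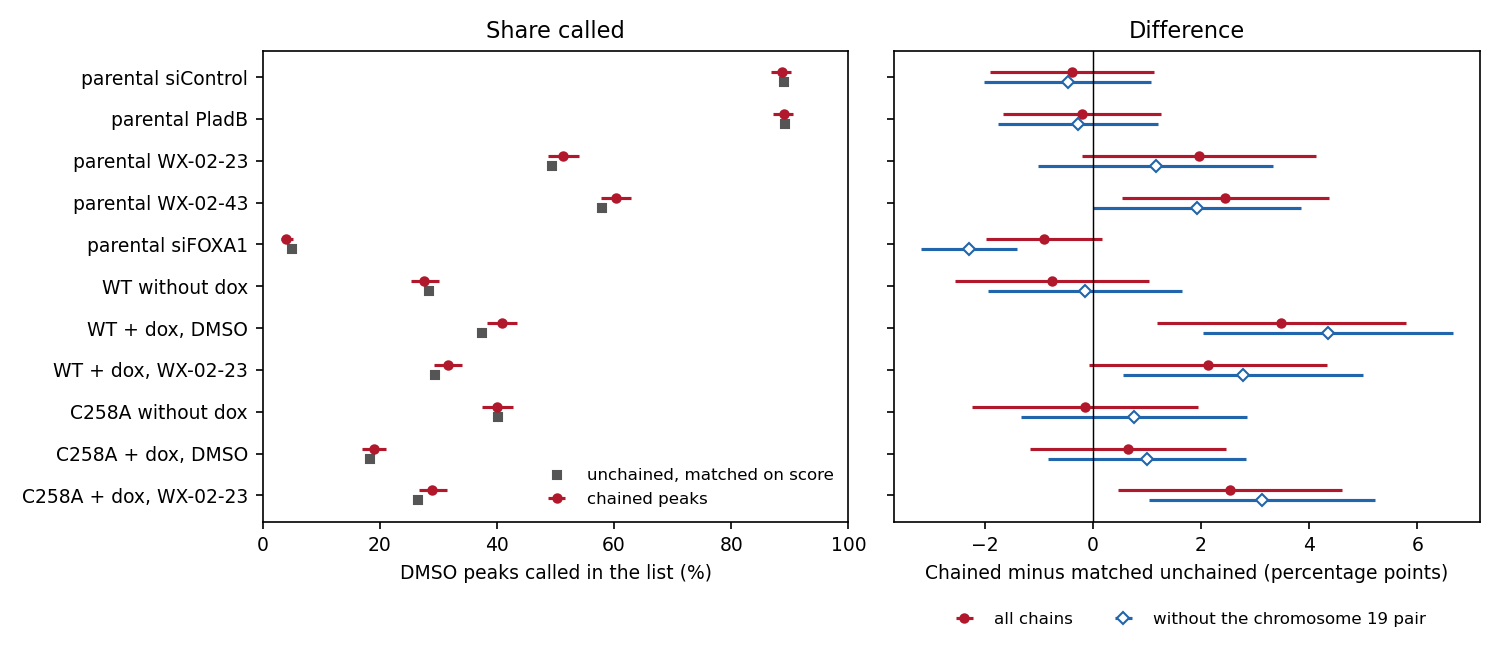
Left, percent of the 1383 chained peaks called in each other list (red, 95% Wilson bars) and of unchained peaks matched on score (grey). Right, their difference in percentage points with 95% counting intervals, for all chains (red) and without the 2 chromosome 19 chains (open blue). The differences run from -0.90 to 3.48 points, and without the chromosome 19 chains siFOXA1 lies at -2.30.

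Each chained peak can also be followed over all 11 other lists. Of the 1383, 65 (4.70%) were called in no other list, beside 4.67% of matched unchained peaks. No engineered list called 640 of them (46.3%, beside 44.6%), and all 6 engineered lists called 170 (12.3%, beside 10.6%; difference 1.70 points, 0.33 to 3.08). All 11 other lists, siFOXA1 included, called 17 chained peaks (1.23%, beside 0.55%; difference 0.68 points, 0.11 to 1.25).

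Neighbours in a chain were called together more often than unchained peaks and the peaks before them in 5 of the 11 lists. For each peak, calls were compared between cases in which the previous peak was and was not called, within 3 ranges of DMSO score of equal size. For an unchained peak, the previous peak was the one before it on the chromosome, whether chained or not. In induced WT cells given DMSO, the excess after a called previous peak was 14.4 points in chains and 4.14 points for unchained peaks. The difference was 10.2 points (5.01 to 15.4). The excess was 9.51 points larger in chains (4.74 to 14.3) in uninduced C258A cells and 9.70 points larger (4.39 to 15) in induced C258A cells given WX-02-23. Without the chromosome 19 chains these values were 8.74, 7.75 and 8.83 points, with intervals above 0. With WX-02-23 in parental cells the value was 5.84 points (1.01 to 10.7), and 4.33 points (-0.55 to 9.20) without the chromosome 19 chains. With WX-02-43 it was 0.96 points (-3.38 to 5.30). With siFOXA1 it was 32.2 points (20.3 to 44.2), and 11.8 points (-1.35 to 24.9) without those chains. Intervals spanned 0 in 6 lists, WX-02-43 among them, the other values being 3.66 points with siControl, 4.67 with PladB, 2.93 in uninduced WT cells, 5.26 in induced WT cells given WX-02-23 and 2.54 in induced C258A cells given DMSO. Without the chromosome 19 pair, 3 lists gave intervals above 0. Neighbours in a chain are closer together than an unchained peak and the peak before it. A wide peak of another list can overlap both neighbours of a chain, and such pairs, from 0 to 61 of 1081 per list, were left out.

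The 2 largest chains lay on chromosome 19 and stood apart from the rest. The chain from 48407423 to 48459855 had 15 peaks, and that from 50594006 to 50642894 had 12. All 27 peaks were called with siControl, PladB, WX-02-23 and WX-02-43, and 20 of them (11 and 9) with siFOXA1. None of the 27 was called in any of the 6 engineered lists. No interval is given for this, since 2 chains are not 27 independent units. Their peaks had a median width of 1737 bp, beside 752.5 bp for the other chained peaks. In the chain of 15, the DMSO scores ran from 118 to 711, and no peak was in the highest score bin. The peak from 48421267 to 48422991, its strongest, had scores of 711 in the DMSO list, 1426 in siControl, 1209 in PladB, 315 in WX-02-23, 766 in WX-02-43 and 181 in siFOXA1. Within the span of this chain lay 22 peaks of the WX-02-23 list and 18 of the WX-02-43 list, more than the 15 of the DMSO list. The same span held 15 siControl, 14 PladB and 13 siFOXA1 peaks. That of the chain of 12 held 17 WX-02-23, 15 WX-02-43, 12 siFOXA1, 9 siControl and 8 PladB peaks. Single siControl and PladB peaks thus overlapped several DMSO peaks of the chain of 12.

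The 1 chain that was called in full with siFOXA1 lay on chromosome 1 from 228743839 to 228782786. It had 6 peaks, all called with WX-02-23 and siFOXA1, 5 with PladB, 2 with WX-02-43, 1 with siControl and none in an engineered list. Its peaks covered 69.5% of the span, and the peak from 228769583 to 228777976 was 8394 bp wide. The first 2 peaks lay 11626 bp apart, and the gaps between the last 5 were 39, 8, 167 and 40 bp. Single peaks of other lists overlapped several of its peaks. Together with the chromosome 19 chains it belonged to 22 chains, with 121 peaks, that had no peak called in any engineered list. Of these 22, 4 had a peak called with siFOXA1, beside 30 of all 302 chains. This chain and the chromosome 19 pair are among the 4.

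**Figure D4:**
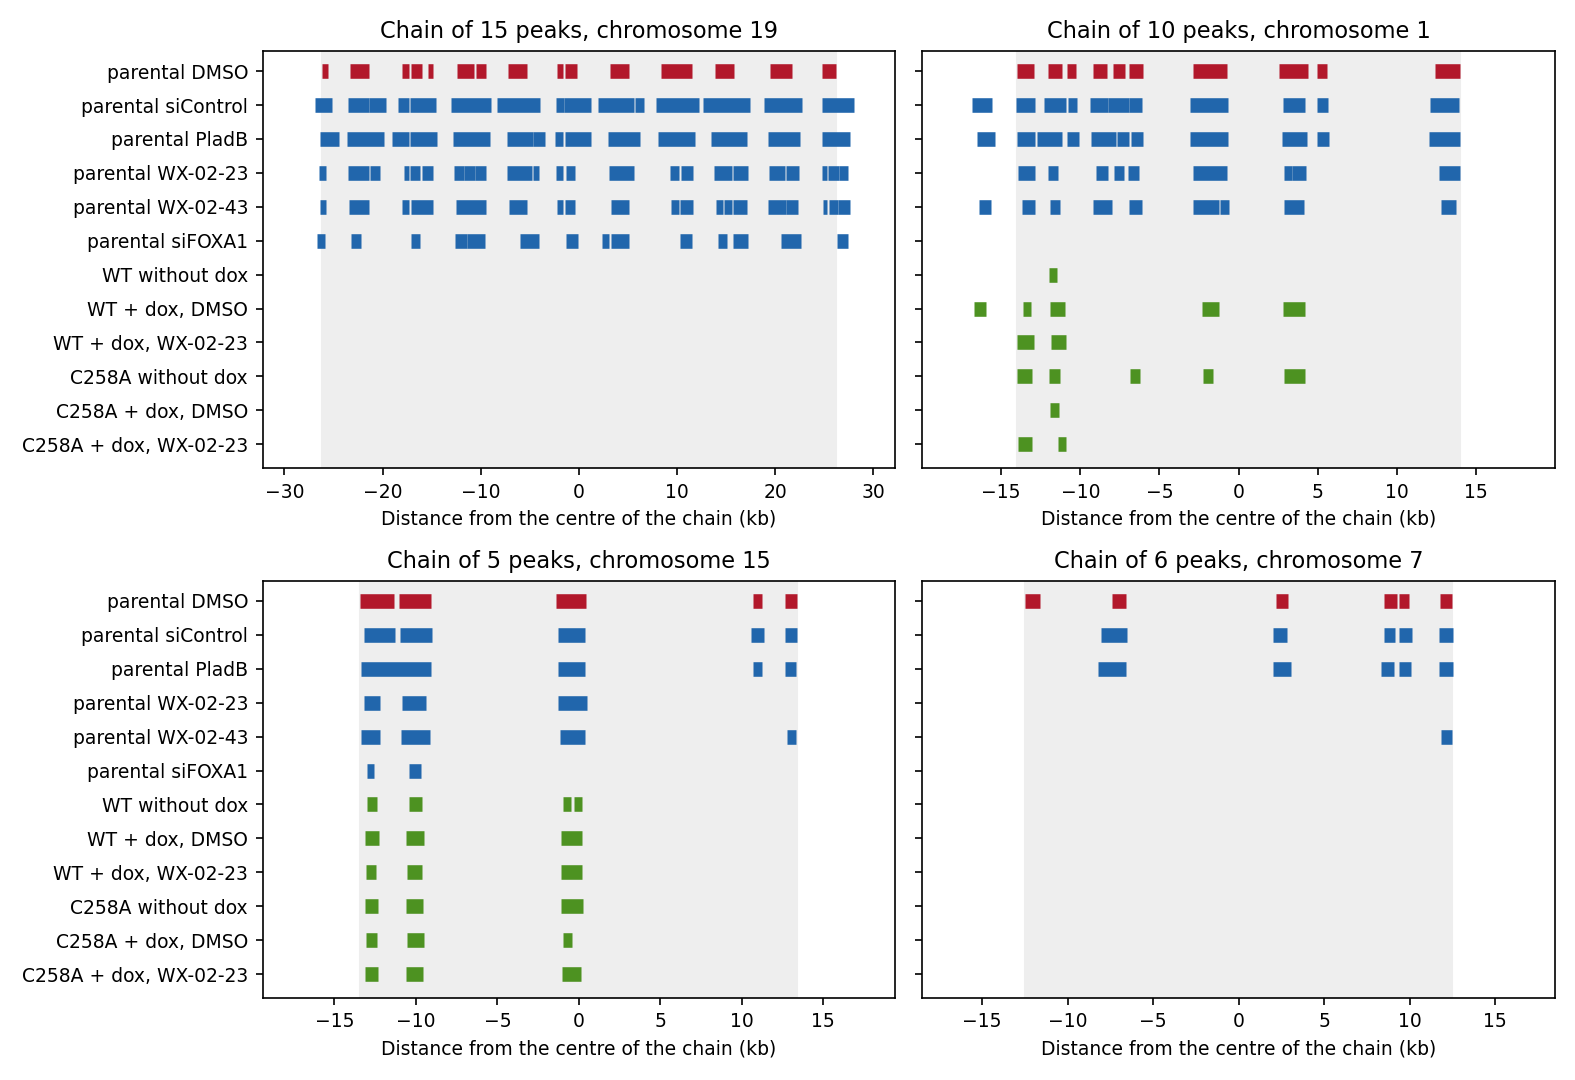
Peaks of the 12 lists at 4 chains, as distance in kb from the centre of the chain (shaded); DMSO peaks are red, other parental lists blue and engineered lists green. The chain of 15 on chromosome 19 is filled in every parental list and empty in the 6 engineered ones, the chains of 10 and of 5 keep part of their peaks in the engineered lists, and the chain of 6 on chromosome 7 has 1 peak beyond the DMSO, siControl and PladB lists.

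The chain with most peaks elsewhere had 10, on chromosome 1 from 144506849 to 144534775. All 10 were called with siControl and PladB, 8 with WX-02-23, 7 with WX-02-43, none with siFOXA1 and from 1 to 5 in the engineered lists. Its strongest peak, from 144508753 to 144509690, had a DMSO score of 1188 and was called in all lists but siFOXA1, with scores of 544 in the WX-02-23 list and 749 in the WX-02-43 list. Its weakest, from 144509955 to 144510540, had a DMSO score of 110 and was called with siControl and PladB but in no list beyond these. The strong and the weak peak lie 264 bp apart.

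The highest summed score, 9318, belonged to a chain of 5 on chromosome 15 from 69883738 to 69910554. Its first 3 peaks had DMSO scores of 2690, 3100 and 3100 and its last 2 had 183 and 244.5. The 3 strong peaks were called with both stereoprobes and in all 6 engineered lists. Of the weak peaks, neither was called with WX-02-23 or in an engineered list, and the peak from 69909836 to 69910554 was called with WX-02-43. The peak from 69886110 to 69888071 was called in every list, with scores of 2524 with WX-02-23, 402 with siFOXA1, 2871 in induced WT and 1607 in induced C258A cells given DMSO. Next by summed score was a chain of 5 on chromosome 13 from 110636439 to 110668345, at 7139, with 4 peaks called with WX-02-23 and 5 with WX-02-43. After it came a chain of 5 on chromosome 12 from 64983117 to 65003176, at 6787, with 2 and 3 called.

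At the other extreme, a chain of 6 on chromosome 7 from 27190329 to 27215306 was the 1 chain of 6 or more with no peak called with WX-02-23. Of its peaks 5 were called with siControl and 5 with PladB, 1 with WX-02-43 and none with siFOXA1 or in an engineered list. Its DMSO scores were low and even, from 104 to 214. The peak called with WX-02-43, from 27214568 to 27215306, was its strongest and had a score of 222 there. Next lowest with WX-02-23 were a chain of 7 on chromosome 11 from 65239514 to 65274141, with 1 peak called, and a chain of 8 on chromosome 12 from 104228084 to 104274842, with 2. These and the next 3 chains were chosen by their calls and serve as examples.

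The chains of 6 or more with the largest excess of the WX-02-43 over the WX-02-23 share were a chain of 8 on chromosome 12 from 125389058 to 125424802, with 6 and 3 peaks called, a chain of 6 on chromosome 16 from 23328267 to 23374727, with 4 and 2, and a chain of 6 on chromosome 18 from 20045937 to 20080083, also with 4 and 2. A chain of 6 on chromosome 2 from 131356945 to 131384592, with 5 and 3, had the same excess in share and a lower summed score, by which ties were ordered. In the chromosome 18 chain the 2 peaks called with WX-02-43 alone had DMSO scores of 363 and 327, and WX-02-43 scores of 115 and 200.2; the lowest score in that list is 90.

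**Figure D5:**
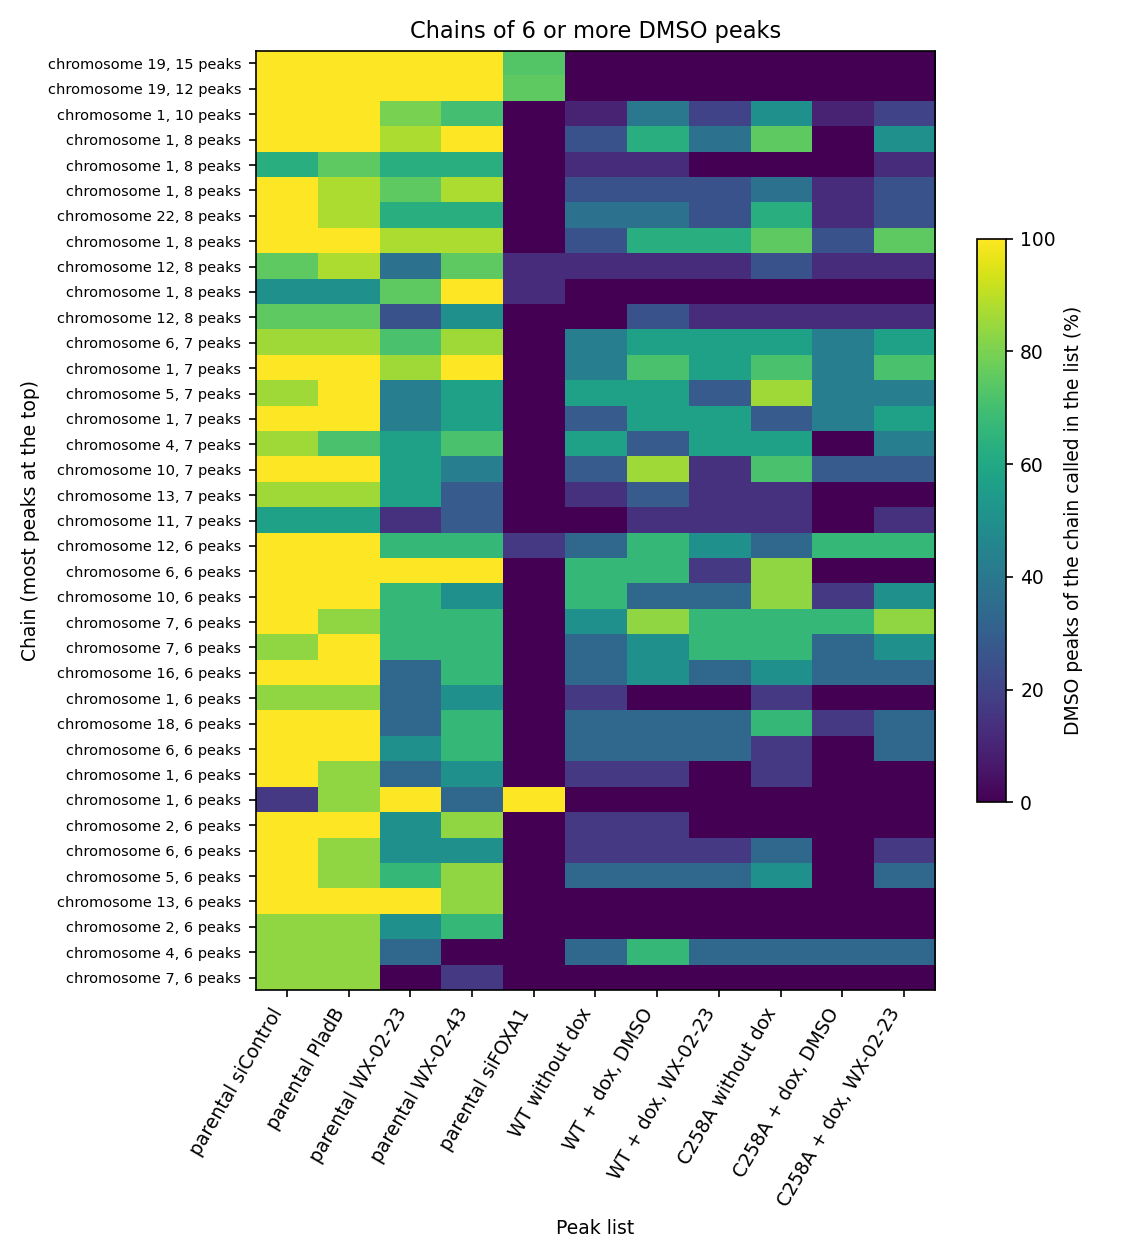
Percent of each chain's DMSO peaks called in the 11 other lists, for the 37 chains of 6 or more peaks, ordered by number of peaks and then summed score. The siControl and PladB columns are nearly filled but for a few rows, the stereoprobe columns are partly filled, and siFOXA1 is mostly filled at 3 chains, which are empty in the 6 engineered columns.

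Some chains had the same layout of peaks as another chain. Among 23183 pairs of chains with equal numbers of peaks, 7 pairs matched at every peak centre within 150 bp, in the same or the reversed order. Of these, 5 were among 1469 pairs on the same chromosome and 2 among 21714 pairs on different chromosomes. The chain on chromosome 2 from 131356945 to 131384592 matched that from 131251427 to 131278904 at 6 of 6 peaks in reversed order, 78040 bp away. On chromosome 9, 3 chains of 4 starting at 69259211, 70486755 and 70842024 matched each other, and on chromosome 5 the chains of 4 starting at 69870990 and 70013444 matched in reversed order. Whether the sequence of these stretches is repeated was not tested, since no genome of this build was used here. Whether the peaks of such a pair are separate sites was likewise not tested.

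The same chaining rule was applied to the other lists. It gave 403 autosomal chains with siControl, of which 215 (53.3%) overlapped a DMSO chain, so that 71.2% of the DMSO chains were met; PladB gave 360, of which 205 (56.9%) did, meeting 67.9%. WX-02-23 gave 74, of which 42 (56.8%) overlapped a DMSO chain, meeting 13.9%, and WX-02-43 gave 94, of which 67 (71.3%) did, meeting 22.2%. Uninduced WT cells gave 12 chains, and induced WT cells 530 after DMSO and 306 after WX-02-23. For the C258A line the numbers, in the same order, were 45, 72 and 199. Of the 530, 56 (10.6%) overlapped a DMSO chain, meeting 18.5%, and 316 overlapped no chain of 2 or more DMSO peaks.

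At equal length this range of counts was narrower. With each list reduced in the same way, DMSO gave 12 chains, siControl 12, PladB 10, WX-02-23 13 and WX-02-43 14. The WT line then gave 12, 16 and 17 in the same order of conditions, and the C258A line 14, 28 and 30.

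The siFOXA1 list was too short to be reduced to that length, yet gave 45 chains. They held 584 of its 2758 autosomal peaks (21.2%), up to 60 in a chain. Of these 45, 3 overlapped a DMSO chain, 34 overlapped no DMSO peak, 38 no engineered peak, and 17 no peak of any other list. The 3 were the chromosome 19 pair and the chromosome 1 chain from 228743839.

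Chains that overlap no chain of 2 or more DMSO peaks were found in every other parental list. With WX-02-43, 5 of 7 such chains held no engineered peak and at least 1 siFOXA1 peak. For siControl it was 7 of 24 and for PladB 0 of 13. With WX-02-23 there were 10 such chains, and 7 of these 10 held no engineered peak and at least 1 siFOXA1 peak. The 3 with most peaks were on chromosome 19 from 36759487 to 36798919 (14 peaks), on chromosome 4 from 190986491 to 191013781 (12 peaks) and on chromosome 1 from 144159473 to 144195375 (8 peaks). Their spans held 0 DMSO and 0 engineered peaks, and 16, 12 and 3 WX-02-43 peaks, 5, 6 and 9 siControl peaks and 1, 5 and 18 siFOXA1 peaks.

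Some peaks that another list called without a DMSO partner lay inside the DMSO chains. Of 2548 such peaks with WX-02-23, 21 (0.82%, 0.54 to 1.26) lay inside a chain span, 4 of them in the chromosome 19 pair; of 1048 with WX-02-43, 3 (0.29%, 0.10 to 0.84) did. With siControl it was 48 of 7030 (0.68%) and in induced WT cells given DMSO 49 of 19958 (0.25%). Of all autosomal peaks, with or without a DMSO partner, 752 of 16601 lay inside with WX-02-23 and 851 of 17561 with WX-02-43. The share of the genome that the spans take up was not computed.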

How the data were processed

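FOXA1 ChIP-seq peaks of 12 libraries, 1 per group, were used; the 3 input samples were not analysed here. The authors deposited 1 peak list per library with chromosome, start, end, name and a score per peak, of at least 90 in every list; the peak names begin with MACS, and what the score measures is not given in the sources used here. The submitters' processing notes name bcl2fastq, Bowtie2 and hg19. Peak caller settings and read depth are not given in the sources used here.

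Chaining, overlaps (1 bp) and shares were computed with Python 3.11.15, numpy 2.4.6, pandas 2.3.3 and scipy 1.17.1. Lists of equal length were cut to their 8575 highest-scoring peaks, which the siFOXA1 list of 3018 peaks could not be. Matching weighted unchained shares over 10 score bins. Shares have Wilson 95% intervals, and differences have normal 95% intervals from the binomial variance per bin. The computation was tested on simulated peaks. Named chains are the 5 with most peaks, the next 3 by summed score, and, among those of 6 or more peaks, the 3 with the lowest WX-02-23 share, the largest excess of WX-02-43 and the highest siFOXA1 share, plus the 3 WX-02-23 chains with most peaks away from DMSO chains. The matching chains, the chromosome 1 stretch and the chromosome 19 pair were singled out after their values were seen. The members, lists and comparisons were chosen with earlier results of these data known. The planned count of forkhead words was not run, because no genome of this build was used here.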

Additional observations from a re-analysis of the deposited data

Results flagged for a closer look

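The engineered lines moved in opposite directions with WX-02-23. The share of chained peaks called changed by -9.26 percentage points in WT cells, from 40.9% in induced cells given DMSO to 31.6% in induced cells given WX-02-23, and by 10.1 points in C258A cells, from 18.9% to 29.0%. The number of chains built from each list changed by -224 in WT cells, from 530 to 306, and by 127 in C258A cells, from 72 to 199. The opposite movement was not particular to chained peaks. Of all autosomal DMSO peaks, the induced WT line called 37.0% after DMSO and 29.1% after WX-02-23. For the induced C258A line these shares were 17.6% and 26.0%. The difference between the lines was not tested, since each group has 1 library. With lists of equal length the shares of chained peaks called were 16.6% and 15.9% in WT cells and 13.2% and 14.8% in C258A cells. The numbers of chains were then 16 and 17 in WT cells and 28 and 30 in C258A cells.

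Outside the autosomes, which the chaining rule left out, the DMSO list held 4 chains of 4 or more peaks. All 4 lay on the X chromosome and held 34 of 1051 peaks there and on the other sequences left out.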

How the results depend on the processing

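Each difference between chained and matched unchained peaks was recomputed under 14 alternatives; of 153 values 100 stayed within the counting interval reported and 53 did not, and these are given in percentage points, for WT and C258A with doxycycline unless stated. With a reciprocal overlap of 50% it was -5.69 for siControl, -7.11 for PladB, -0.53 for WX-02-23, 0.054 for WX-02-43, -0.16 for WT with WX-02-23, -3.56 for C258A without doxycycline, -1.64 for C258A with DMSO and -0.42 for C258A with WX-02-23. Counting any peak within 500 bp, it was 1.14 for siControl, 4.42 for WX-02-23, 4.79 for WX-02-43 and 4.60 for WT with WX-02-23. With lists of equal length it was 1.88 for siControl and 2.84 for PladB. With a gap of 5000 bp it was 4.22 for WX-02-23, 4.98 for WX-02-43, 2.58 for siFOXA1, -2.97 for WT without doxycycline, 0.50 for WT with DMSO, -3.32 for C258A without doxycycline and -1.40 for C258A with DMSO. With chains of 6 or more it was 11.9 for WX-02-23, 8.53 for WX-02-43, 5.92 for siFOXA1, -6.27 for WT without doxycycline, -5.73 for WT with DMSO, -6.22 for WT with WX-02-23, -6.12 for C258A without doxycycline, -4.16 for C258A with DMSO and -1.30 for C258A with WX-02-23. From the top 50% of DMSO peaks by score it was 7.28 for WX-02-23, 5.07 for WX-02-43, 2.74 for siFOXA1 and -4.36 for WT without doxycycline. With chains of 6 or more and without the chromosome 19 pair it was 8.50 for WX-02-23, 6.20 for WX-02-43, -3.45 for WT without doxycycline, -1.84 for WT with DMSO, -3.49 for WT with WX-02-23 and -2.71 for C258A with DMSO. Leaving out the chromosome 1 stretch of 10 chains as well, it was 6.16 for WX-02-23, 4.63 for WX-02-43, -3.33 for WT with DMSO, -4.77 for WT with WX-02-23, -3.55 for C258A without doxycycline, -1.84 for C258A with DMSO and -0.63 for C258A with WX-02-23. With a gap of 25000 bp it was 0.11 for WX-02-43 and -2.81 for siFOXA1. With chains of 3 or more it was -0.16 for WX-02-43 and -2.0 for siFOXA1. Matched on score and width it was 0.53 for siFOXA1. Without the chromosome 19 pair it was -2.30 for siFOXA1. The values without the chromosome 19 pair, also among chains of 6 or more, and without the chromosome 1 stretch were added after seeing the data. The differences stayed within the interval with 20 score bins and against peaks of all chains of 1 to 3. The causes of these shifts were not tested.

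The number of DMSO chains was 82 with a gap of 5000 bp, 846 with 25000 bp, 1100 with 3 or more peaks, 37 with 6 or more and 44 from the top 50% of DMSO peaks. With lists of equal length the numbers were 12 for siControl, 10 for PladB, 13 for WX-02-23, 14 for WX-02-43, 16 for WT with DMSO, 17 for WT with WX-02-23, 14 for C258A without doxycycline, 28 for C258A with DMSO and 30 for C258A with WX-02-23. Across the other lists, a gap of 5000 bp gave 114 for siControl, 91 for PladB, 27 for WX-02-23, 32 for WX-02-43, 5 for WT without doxycycline, 156 for WT with DMSO, 97 for WT with WX-02-23, 16 for C258A without doxycycline, 16 for C258A with DMSO and 59 for C258A with WX-02-23. A gap of 25000 bp gave 1036 for siControl, 974 for PladB, 193 for WX-02-23, 239 for WX-02-43, 41 for WT without doxycycline, 1256 for WT with DMSO, 757 for WT with WX-02-23, 116 for C258A without doxycycline, 205 for C258A with DMSO and 527 for C258A with WX-02-23. The siFOXA1 list was too short to be reduced to equal length. No paired analysis was possible because each group has 1 library, and no replicate could be left out. Depth is unknown, so a peak absent from a list was not detected there at that list's depth, and fewer bound sites and less enrichment cannot be told apart.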
